A study of Mus musculus with 11 samples.

Results

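Cells of the mPFC were sorted from single CRF1:GFP mice to obtain CRF1+ neurons. In these sorted cells 53 genes were near absent from all 6 naïve mice and present in withdrawn mice. They were chosen by their raw counts, as the genes with at most 3 raw counts in each naïve mouse and at least 10 raw counts in at least 3 of the 5 withdrawn mice. The files list 53465 genes. Some mouse had a count for 41907 of them, and 55 of these (0.131%) met the rule. Ptgdr and Creb3l4 are left out by the rule together with 6 named genes that did not meet it, which leaves 53. The other way round, 32 genes (0.0764%) had at most 3 counts in each withdrawn mouse and at least 10 in at least 3 naïve mice. Because naïve and withdrawn counts chose the members, their difference between groups is given as a description with no test.

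Both groups were adult male CRF1:GFP mice, in which green fluorescent protein reports the gene of corticotropin-releasing factor receptor 1, and cells of the medial prefrontal cortex (mPFC) were sorted on that signal. Before the sort the cells passed a density gradient meant to enrich neurons, and the gates also used DAPI and the nuclear dye DRAQ5 to select live cells. Withdrawn mice breathed ethanol vapor intermittently for 5 to 6 weeks, were injected with ethanol and with pyrazole, an inhibitor of alcohol dehydrogenase, and were 5 to 8 days into forced abstinence. Naïve mice received pyrazole and air, so that pyrazole was common to both groups. Each library was made from 160 pg of RNA of 1 mouse, and n counts mice. Group labels conflict for withdrawn mice 3, 4 and 5: their titles and treatment read ethanol, and a further label reads control. The deposit's own design text has 5 control and 6 ethanol mice. Crhr1, the gene of the sorted receptor, was at 68.7 to 117.9 CPM (counts per 1000000, on TMM-normalized library sizes) in naïve and 41.4 to 134.7 CPM in withdrawn mice, and 6 markers of glutamatergic neurons summed to 1981 to 3318 and 1378 to 2942 CPM.

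Hcar1 encodes a receptor for lactate, Slc6a14 a broad amino acid transporter, Scnn1a a subunit of the epithelial sodium channel, and Wfdc2 and Agr2 proteins of secretory epithelia. Lox, lysyl oxidase, crosslinks collagen and elastin in connective tissue, while Msx2 and Sp7 are transcription factors of skeletal development. Counts as low as those of most members lie near the limit of what such libraries detect.

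Counts on genes ranged from 9970161 to 17855514 in naïve mice and from 7351567 to 22244869 in withdrawn mice, so 3 counts stood for 0.168 to 0.301 CPM and 0.135 to 0.408 CPM. Reads outside exons made up 5.77% to 31.5% in naïve mice and 13.3% to 48.1% of the tallied reads in withdrawn mice. No group difference in depth, in that share or in the number of genes with a count passed an exact permutation test (two-sided, p from 0.273 to 0.667, each 0.667 adjusted over the 3 measures). Withdrawn mouse 4 stood apart, with the fewest counts on genes, the largest share outside exons (48.1%) and the most genes with a count (31830). Naïve mouse 5 was at the other end, with 15585 genes and 5.77%.

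Promoters are shown for the 3 members at the highest level among those with no read in any naïve mouse, from 250 bases before to 50 bases after the RefSeq start (GRCm38.p6), written 5′ to 3′ on the gene's strand. Capitals mark the letters TGANTCA (an AP-1 site) or GGGCGG (a GC box), read on both strands.
Hcar1 (chr5:123879954-123880253, minus strand): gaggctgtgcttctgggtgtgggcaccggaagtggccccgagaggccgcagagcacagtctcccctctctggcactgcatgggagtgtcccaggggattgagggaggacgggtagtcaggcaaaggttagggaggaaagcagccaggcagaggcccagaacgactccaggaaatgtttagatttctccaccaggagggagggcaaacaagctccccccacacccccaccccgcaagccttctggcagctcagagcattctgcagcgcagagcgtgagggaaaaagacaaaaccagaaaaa
Slc6a14 (chrX:21714650-21714949, plus strand): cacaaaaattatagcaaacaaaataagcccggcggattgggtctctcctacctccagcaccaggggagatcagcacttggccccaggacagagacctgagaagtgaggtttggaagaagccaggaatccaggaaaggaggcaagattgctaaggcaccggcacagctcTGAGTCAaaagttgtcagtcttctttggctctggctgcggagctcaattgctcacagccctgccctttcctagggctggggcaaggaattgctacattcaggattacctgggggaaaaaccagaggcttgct
Tmem30b (chr12:73546346-73546645, minus strand): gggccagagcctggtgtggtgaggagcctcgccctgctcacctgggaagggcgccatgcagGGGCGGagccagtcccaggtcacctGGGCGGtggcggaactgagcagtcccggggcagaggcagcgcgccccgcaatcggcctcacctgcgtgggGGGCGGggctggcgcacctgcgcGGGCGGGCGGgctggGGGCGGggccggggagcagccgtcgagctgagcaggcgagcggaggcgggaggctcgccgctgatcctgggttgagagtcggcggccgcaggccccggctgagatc
The promoter of Hcar1 held none of the 5 motifs searched, which also included the cAMP response element TGACGTCA, the E-box CACGTG and the promoter box spelled TATAAA. Slc6a14 had 1 AP-1 match and Tmem30b had 6 GC box matches, of which 2 overlap. RefSeq promoters were found for 24 of the 53 members, 29 sequences in all. GC boxes were in 13 of the 29 (44.8%, against 35.7% of 32851 promoters), and AP-1 matches were in 2 (6.90%, against 7.81%). The letters TATAAA were in 2 (6.90%, against 13.6%), E-boxes in 2 (6.90%, against 7.15%) and the cAMP response element in none (1.79% of all promoters). A match of letters is a description and not a site.

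Hcar1 (ENSMUSG00000049241), a single-exon gene (GRCm38, chromosome 5, 123876736 to 123880020, minus strand), had the highest median CPM of the members. It had 0 counts in every naïve mouse, and 303, 0, 288, 258 and 31 counts in withdrawn mice 1 to 5. Its median in withdrawn mice was 13.4 CPM, and with 3 counts over all naïve mice as the limit, the pooled withdrawn level was at least 379.8-fold higher. Withdrawn mouse 2 was at 0 like the naïve mice, so the groups overlapped. This bound, like the others here, describes these reads and is no test, since low naïve counts chose the members. It covers counting error only, since reads amplified from little RNA are not independent molecules.

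Slc6a14 (ENSMUSG00000031089, chromosome X from 21714896 to 21742355, plus strand) likewise had 0 counts in every naïve mouse. Withdrawn mice 1 to 5 had 285, 0, 148, 85 and 68 counts, with a median of 6.90 CPM and a pooled level at least 252.9-fold higher. Mouse 2 was again without a read. Tmem30b (ENSMUSG00000034435, chromosome 12 from 73543402 to 73546392, minus strand) encodes a partner protein of phospholipid flippases. It had 69, 6, 81, 71 and 69 counts, none in naïve mice, and was at least 127.8-fold higher. Here every withdrawn mouse lay above every naïve mouse, although mouse 2 was lowest at 0.663 CPM.

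Wfdc2, a secreted protein with whey acidic protein domains, had 2 counts in naïve mouse 2, none in the other naïve mice, and 235, 0, 121, 190 and 108 counts in withdrawn mice. Atoh8, a basic helix-loop-helix transcription factor, had at most 2 counts in a naïve mouse and 176, 0, 90, 65 and 48 in withdrawn mice. Pon3, a paraoxonase that hydrolyses lactones, had at most 1 and then 105, 0, 40, 28 and 135. For all 3, withdrawn mouse 2 sat at 0 and the other withdrawn mice lay above every naïve mouse. C1qtnf7, a secreted protein of the C1q and tumor necrosis factor-related family, had no naïve count and 39, 0, 26, 76 and 16 counts. The same shape, at least 10 counts in withdrawn mice 1, 3, 4 and 5 but not in mouse 2, was found for 11 members, of which 9 are protein-coding. Per kilobase of exon the median levels in withdrawn mice were 6.68 CPM for Wfdc2, 4.09 for Hcar1, 2.01 for Slc6a14, 1.67 for Atoh8, 1.63 for Tmem30b and 0.999 for Pon3. Their ranges over withdrawn mice overlapped, so this order does not separate neighbours.

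**Figure D1:**
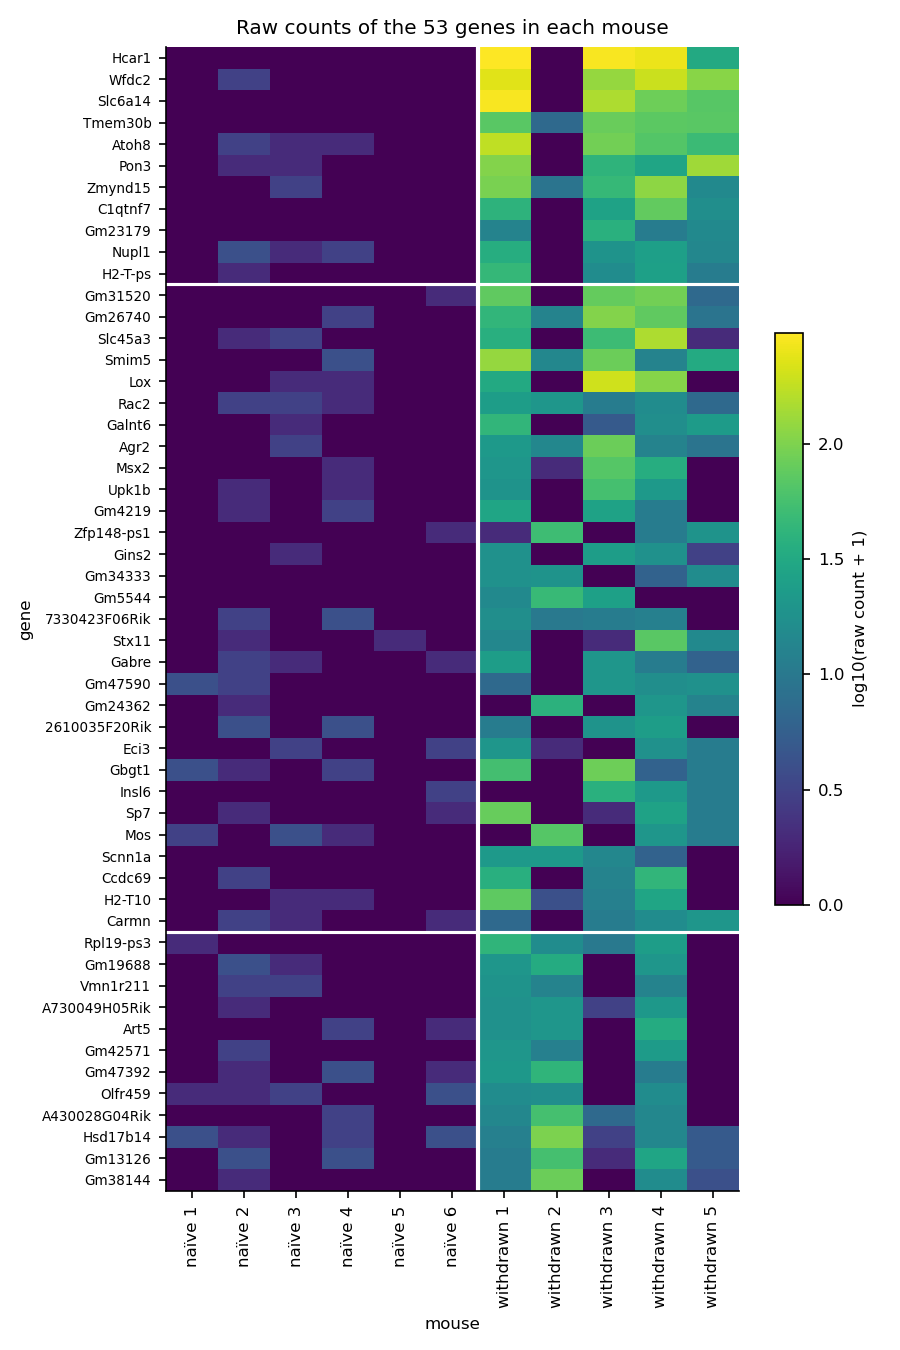
Raw counts (colour, log10 of count + 1) of the 53 genes (rows) in each of 6 naïve and 5 withdrawn mice (columns). The top block holds the 11 genes at 10 or more counts in withdrawn mice 1, 3, 4 and 5 but not 2, the bottom block the 12 at 10 or more counts in mice 1, 2 and 4 but in neither 3 nor 5, and the middle block the rest.

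**Figure D2:**
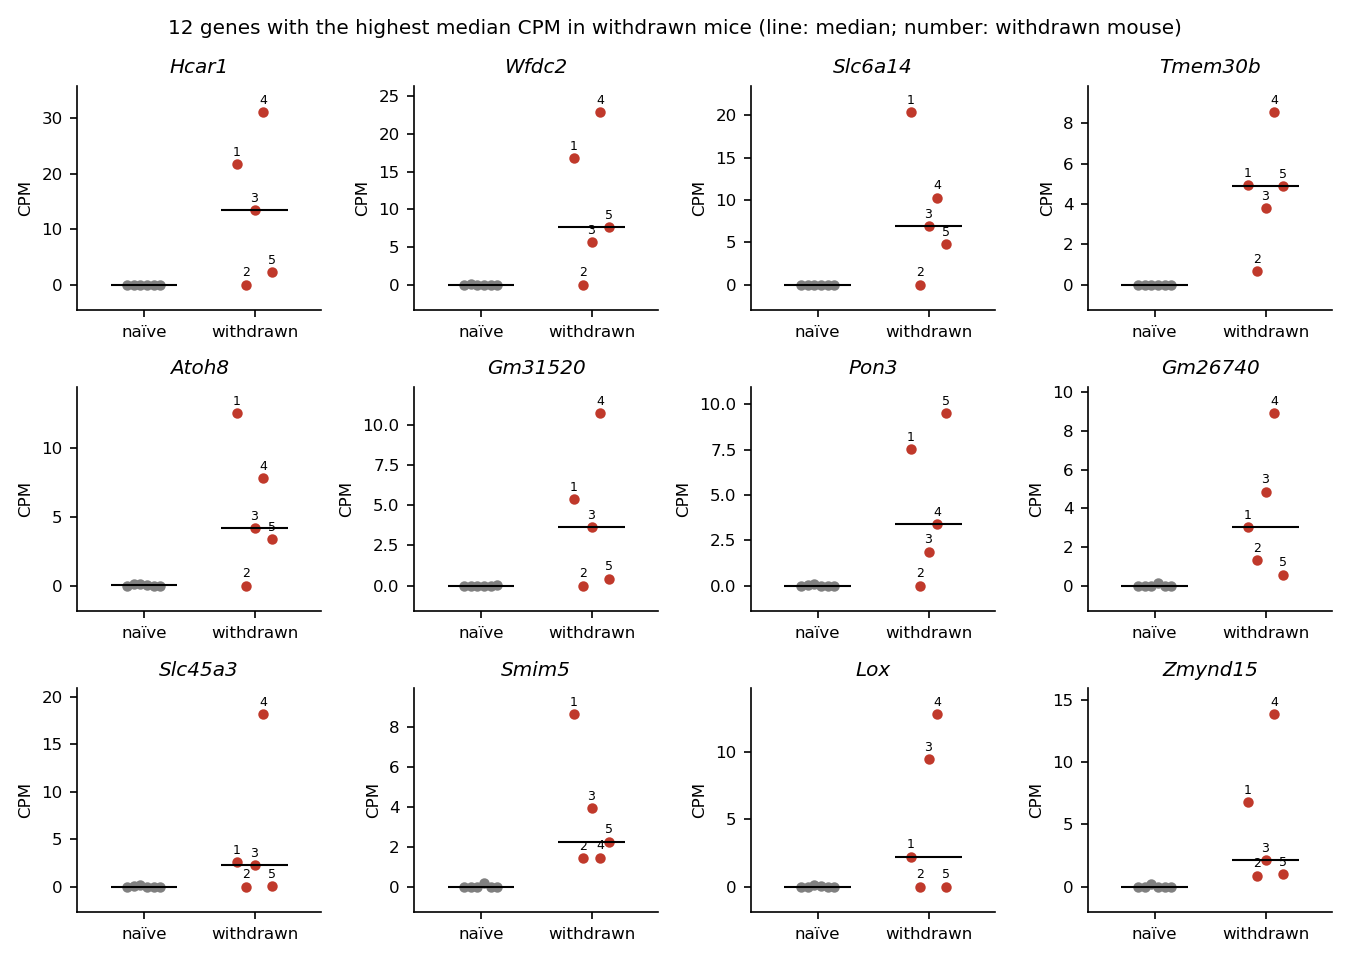
CPM in each mouse for the 12 members with the highest median in withdrawn mice (red, numbered by mouse) and in naïve mice (grey), with lines at the group medians. Withdrawn mouse 2 is at 0 for 8 of the 12 genes, Hcar1, Wfdc2 and Slc6a14 among them.

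Smim5, a small membrane protein, was the member with at least 10 counts in all 5 withdrawn mice (121, 13, 84, 12 and 32, against 3 in naïve mouse 4 and 0 in the others). It lies inside Recql5, a gene of the opposite strand. Of the 5 withdrawn mice, 4 reached 10 counts for a further 14 members, and exactly 3 did for the remaining 38. Every withdrawn mouse lay above every naïve mouse for 6 members, Tmem30b, Gm26740, Smim5, Zmynd15, Rac2 and Agr2, where 143 of the 41907 genes with a count (0.341%) did so. The rule used this contrast, and nothing is read from the difference in share. Zmynd15, a zinc finger protein known from spermatids, had 95, 8, 45, 115 and 14 counts in withdrawn mice. Rac2, a small GTPase of blood cells, had 23, 19, 10, 15 and 6, and Agr2, a protein disulfide isomerase of mucus-producing cells, had 21, 13, 84, 12 and 8. For these 3 genes no withdrawn mouse was without reads.

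Families were counted by the start of gene symbols and so miss members with other names. Symbols of the transporter and channel family were carried by 3 members, or 5.66% of the 53, against 3.10% of the 18212 genes with 10 counts in 3 mice of a group. Besides Slc6a14 these were Slc45a3, with 36, 0, 49, 151 and 1 counts in withdrawn mice, and Scnn1a, with 21, 21, 13, 5 and 0 counts and none in naïve mice. In Slc45a3, mouse 4 held 78.7% of the summed CPM of its group. Gabre, the epsilon subunit of the GABA-A receptor and so part of a chloride channel, was not taken by these symbols and had 23, 0, 19, 10 and 5 counts and at most 2 in a naïve mouse.

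Lox was the member whose symbol placed it among extracellular matrix genes and their enzymes (1.89% of members against 0.873% of the 18212 genes). It had 31, 0, 202, 106 and 0 counts in withdrawn mice and at most 1 in a naïve mouse, so mice 2 and 5 did not stand above naïve mice. Msx2, the member with a symbol of the transcription factor family (1.89% against 1.10%), had 19, 1, 67, 34 and 0. The transcription factors Atoh8 and Sp7 were not taken by those symbols, and Sp7 had 79, 0, 1, 26 and 10. Upk1b, a tetraspanin of the bladder lining, had 18, 0, 55, 21 and 0. For Lox, Msx2, Sp7 and Upk1b the group was split, with 2 or more withdrawn mice at 1 count or fewer.

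Galnt6, an enzyme that starts O-linked glycosylation, had 42, 0, 4, 16 and 22 counts, and Gins2, part of the replication helicase, had 17, 0, 23, 17 and 2. Stx11, a syntaxin of immune cells, had 13, 0, 1, 70 and 14, and mouse 4 held over 80% of its group's summed CPM. H2-T10, a class I-like gene of the major histocompatibility complex annotated as a polymorphic pseudogene, had 72, 3, 11, 28 and 0. H2-T-ps, its neighbour and a pseudogene, had 44, 0, 15, 25 and 10. Reads of such similar sequences can be lost or split between copies, so these counts are uncertain, as are those of the pseudogenes Rpl19-ps3 and Zfp148-ps1. Ccdc69 was placed among cilia genes by its prefix alone, with 36, 0, 12, 42 and 0 counts. No member had a symbol of the families of receptors, secreted ligands, zinc finger genes, keratins, myosins and actins, or cell cycle and DNA repair genes. Hcar1, Insl6, Zmynd15 and Gins2 have such roles under other symbols, so these counts of 0 do not describe function.

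A further 5 members were each at 10 counts in 3 withdrawn mice, mouse 5 among them. Insl6, an insulin-like peptide of the testis, had 0, 0, 37, 21 and 10 counts in withdrawn mice, and Mos, a kinase of maturing oocytes, had 0, 66, 0, 19 and 10. Carmn, a long non-coding RNA of smooth muscle, had 6, 0, 10, 15 and 19. Among enzymes, Gbgt1, a glycosyltransferase, had 54, 0, 85, 5 and 10 counts and Eci3, an enoyl-CoA isomerase, had 19, 1, 0, 17 and 10. Withdrawn mouse 5 had 10 or more counts for each of these 5 genes, and mouse 2 for Mos alone.

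A second layout ran through 12 members that had at least 10 counts in withdrawn mice 1, 2 and 4 and fewer in mice 3 and 5. Of these 5 are protein-coding, 7 carry names of unnamed gene models and 5 have a single exon. Vmn1r211, a vomeronasal receptor, had 18, 12, 0, 12 and 0 counts, and Olfr459, an odorant receptor, had 15, 16, 0, 15 and 0. Such receptors are normally used in sensory neurons of the nose, and they made up 3.77% of members against 0.434% of the 18212 genes. Gm19688, a processed pseudogene, had 19, 33, 0, 19 and 0, and Hsd17b14, a steroid dehydrogenase, had 11, 97, 2, 13 and 4. Art5, an ADP-ribosyltransferase, had 17, 19, 0, 33 and 0. Mouse 2 was highest for A430028G04Rik, Gm13126 and Gm38144 as well, with 55, 55 and 84 counts. Mouse 2, with no read of the highest members, held the highest value of Hsd17b14, and it was the top mouse for 13 members. In mice 1, 2 and 4 the share of reads outside exons was 26.2%, 39.6% and 48.1%, against 13.3% and 16.0% in mice 3 and 5. The part of that share in the 12 members' counts was not tested.

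Over all members, 32 of 53 (60.4%) were protein-coding, against 78.9% of the 18212 genes, 14 (26.4% against 15.9%) were other non-coding or unclassified models and 7 (13.2% against 5.06%) were pseudogenes. Single-exon genes made up 22.6% of members and 13.1% of those genes, and the median exonic length was 2453 against 3894 bases. The members were also lower, at a median of 0.528 against 3.32 CPM per kilobase in withdrawn mice. Among the 32 genes of the other direction, 31.25% had a single exon and the median exonic length was 1796.5 bases, so these traits are not particular to the members. Gene models without a name made up 32.1% of members, against 21.5% of the 18212 genes. The highest were Gm31520 (75, 0, 78, 89 and 6 counts), Gm26740 (42, 12, 104, 74 and 8) and, in the second layout, Gm19688 and A730049H05Rik (17, 19, 2, 20 and 0). Gm4219 (28, 0, 26, 10 and 0) and 2610035F20Rik (10, 0, 18, 23 and 0) were lower. The 5 single-exon models Gm42571, 7330423F06Rik, Gm23179, Gm47590 and Gm24362 lie inside a gene of the same strand. The gene around Gm47590, Anks1b, was at 313.3 ± 24.9 CPM in naïve mice (SD, n = 6) and 255.8 ± 49.3 CPM in withdrawn mice (SD, n = 5). Abcb1b, around 7330423F06Rik, was at 2.36 ± 1.84 and 7.59 ± 5.12 CPM, and Fryl, Macrod2 and Eloa, around the others, had group means from 42.7 to 75.5 CPM. Unspliced reads of the surrounding gene would be counted on these models, and their part was not tested. On either strand, 12 members lie inside another gene. Of the surrounding genes on the opposite strand, Ppm1h around A430028G04Rik averaged 146.9 CPM over all mice and Recql5 around Smim5 29.6 CPM. The others were at 4.94 CPM or less. If strand was not kept, unspliced reads of these genes could be counted as well, which was not tested.

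Exon bases were shared with another gene by 12 members. Nupl1 shared bases with Atp8a2, Gm49336 and Mir719 on its strand, and the largest overlap with any of these was 1756 bases. Slc45a3 shared 481 with Gm29103. On the opposite strand, Gins2 shared 2758 bases with Gse1, A730049H05Rik 1381 with Adamts9, Zmynd15 552 with Cxcl16, Galnt6 441 with Galnt6os and Lox 30 with AC161119.1. Whether counting used strand is not given in the sources used here, so the counts of these members are uncertain to that extent.

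At 10 counts or more, withdrawn mice 1 to 5 held 47, 22, 33, 49 and 24 of the 53 members, and no naïve mouse can hold any. Summed over members, the level was 176.6, 86.5, 92.1, 249.8 and 54.5 CPM in withdrawn mice 1 to 5 and 0.0676 to 2.51 CPM in naïve mice. Mouse 4, the shallowest library, held most members, and it was the top mouse for 25 of them. Mouse 5 was the top mouse for 1 member, Pon3. Across naïve mice, 8 members had no read at all, namely Hcar1, Slc6a14, Tmem30b, C1qtnf7, Gm34333, Gm5544, Gm23179 and Scnn1a, with bounds from 23.7-fold to 379.8-fold. Naïve mouse 5 had a single read on all 53 members, while naïve mouse 2 had 46 reads.

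**Figure D3:**
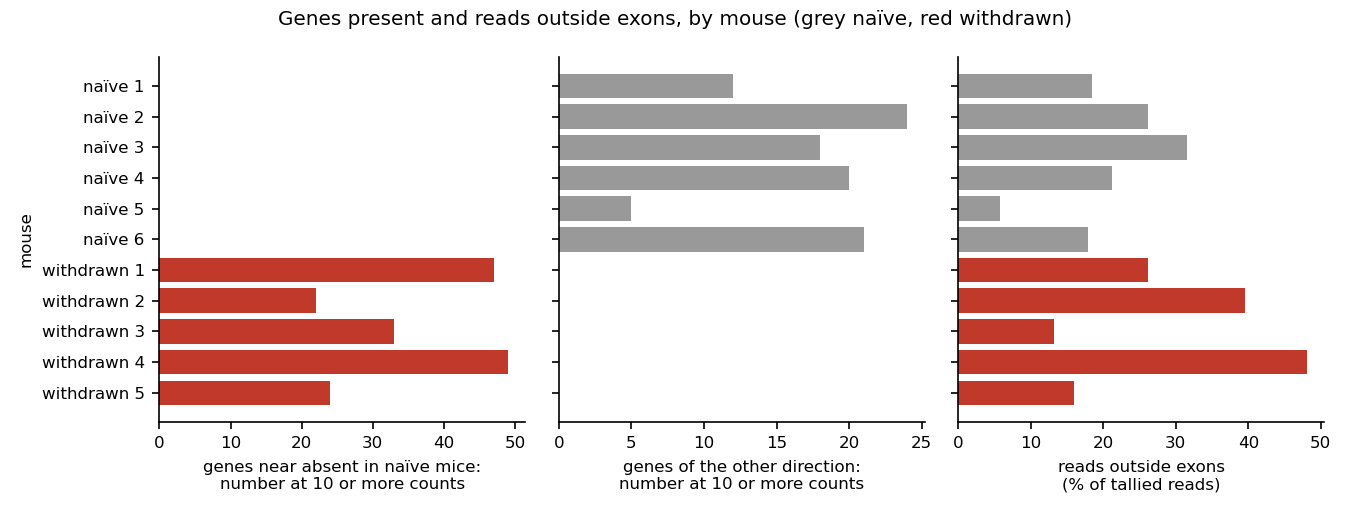
Number of the 53 members at 10 or more counts (left), number of the 32 genes of the other direction at 10 or more counts (middle) and share of tallied reads outside exons (right) in each mouse. Withdrawn mice 1 and 4 hold 47 and 49 members, and naïve mouse 5 holds 5 of the 32 genes.

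Markers of neurons and of other cell types were read beside the members, in 14 lists with no member on any of them. The density gradient and the gates on GFP, DAPI and DRAQ5 are steps that can deplete other cell types, red cells without a nucleus among them. How far they did so was not tested. In the edgeR test of all 17093 genes past the low-count filter, 1 gene was called (0.00585%), and it was no marker. With so few calls in all, the lack of a called marker is no result about the lists. Of the fibroblast markers, 9 of 9 tested genes were higher in withdrawn mice, with a median log2 fold change of 3.46 against 0.02 over all tested genes, and none of the 10 markers at 0 throughout. Their summed level was 2.03 to 75.8 CPM in naïve mice and 1408, 21.1, 701.2, 978.6 and 232.05 CPM in withdrawn mice 1 to 5. Mouse 2, where 25 of the 53 members were at 0 counts, Hcar1, Wfdc2, Slc6a14, Atoh8 and Lox among them, was thus also within the naïve range for these markers. Their part in the members' counts was not tested.

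Of the other lists, all tested markers were higher in withdrawn mice for oligodendrocyte precursors (3 of 3, summed 0 to 15.4 CPM in naïve and 8.16 to 28.0 CPM in withdrawn mice), border macrophages (3 of 3, 0 to 3.82 and 0.699 to 9.66 CPM), lymphocytes (2 of 2, 0 to 9.63 and 3.54 to 30.1 CPM), erythroid cells (3 of 3, 0 to 49.2 and 0.429 to 191.0 CPM) and ependymal and choroid plexus cells (1 of 1, 0 to 2.33 and 2.21 to 22.3 CPM). Tested markers are only those past the low-count filter, which a low marker can pass through 1 group alone. These lists hold 6, 5, 8, 6 and 6 markers in this order, so part of each was not tested. The median sums did not follow for lymphocytes (5.53 CPM in naïve and 5.15 CPM in withdrawn mice) and erythroid cells (2.63 and 0.886 CPM). Withdrawn mouse 4 held the highest sum of both, 30.1 and 191.0 CPM. For oligodendrocyte precursors, border macrophages and ependymal and choroid plexus cells the medians were higher in withdrawn mice. The lymphocyte marker Cd3d had no count in any mouse. Directions were mixed for microglia (1 of 3 higher, 0.963 to 8.75 and 7.08 to 19.6 CPM), endothelial cells (3 of 8, 2.23 to 445.3 and 40.8 to 382.4 CPM), mural cells (3 of 5, 0.203 to 102.2 and 13.4 to 194.6 CPM), astrocytes (2 of 6, 81.9 to 272.0 and 76.1 to 496.3 CPM), oligodendrocytes (1 of 5, 134.1 to 269.0 and 106.7 to 248.0 CPM), glutamatergic neurons (1 of 6) and GABAergic neurons (6 of 8, 76.2 to 931.3 and 30.3 to 723.3 CPM). Among these mixed lists the median sums in naïve and withdrawn mice were 4.09 and 9.38 CPM for microglia, with 3 of 8 markers tested. They were 187.4 and 357.3 CPM for astrocytes and 2531 and 2610 CPM for glutamatergic neurons. Lower medians in withdrawn mice were found for endothelial cells (142.1 and 58.6 CPM) and mural cells (31.7 and 17.8 CPM). The same held for oligodendrocytes (185.8 and 117.0 CPM) and GABAergic neurons (453.0 and 254.3 CPM). Granulocyte markers did not pass the filter and summed to at most 0.491 CPM in naïve and 5.31 CPM in withdrawn mice. In bulk samples fewer cells of a type and less RNA per cell cannot be told apart.

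**Figure D4:**
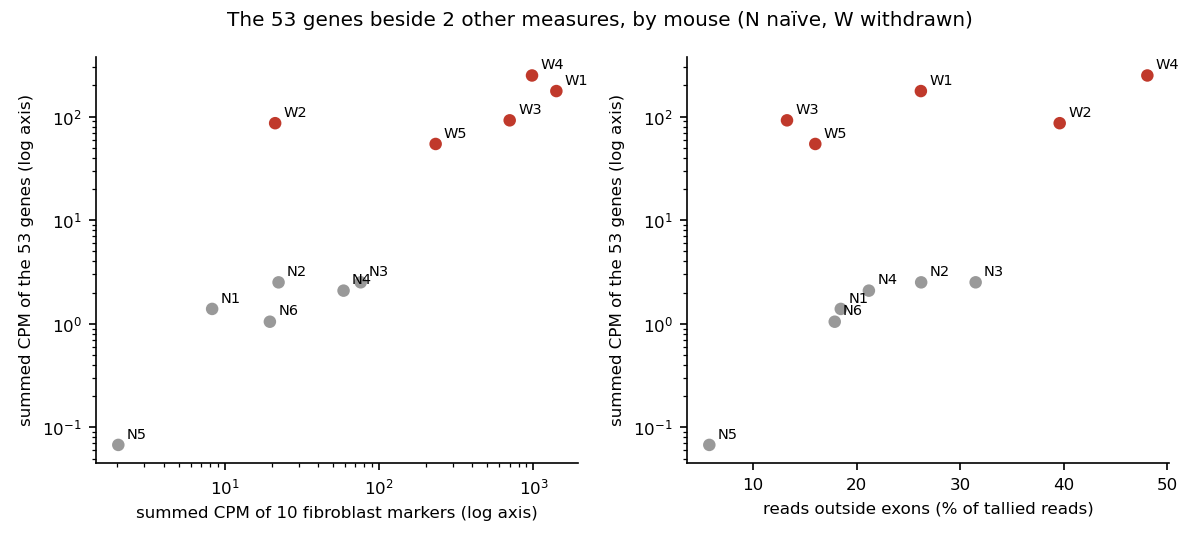
Summed CPM of the 53 members (vertical, log axis) in each mouse against the summed CPM of 10 fibroblast markers (left, log axis) and against the share of reads outside exons (right). Withdrawn mouse 2 (W2) lies at 21.1 CPM of fibroblast markers and 39.6% outside exons, and withdrawn mouse 3 (W3) at 701.2 CPM and 13.3%.

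In the test across all genes (edgeR's quasi-likelihood test, called at an adjusted p of 0.05 with a log2 change over 0.6 in size), 1 of 17093 genes was called (0.00585%), and it is not a member. The low-count filter passed Smim5 and Zmynd15 of the 53 members, so the other 51 were not tested. The rule had already picked Smim5 and Zmynd15 by the same contrast between groups. Nothing is therefore read from their test, and it gives no result about any member.

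The other direction gave 32 genes, of which 13 (40.6%) are protein-coding and 18 (56.3%) unnamed gene models. Tacr1, the receptor for substance P, had 48, 39, 10, 3, 0 and 195 counts in naïve mice 1 to 6 and at most 3 in a withdrawn mouse. Srarp had 16, 22, 11, 0, 0 and 24, Trim40 10, 21, 24, 1, 0 and 53, and Tbx1, a T-box transcription factor, 0, 53, 22, 0, 0 and 71. Foxr2, Tssk4, Gm43537, Gm13619, Cyp4f15 and 4933406P04Rik completed the 10 with the highest median level in naïve mice. The median of Tacr1 in naïve mice was 1.53 CPM, the highest of the 32. No gene of this direction had 10 counts in more than 4 of 6 naïve mice, and 4 had them in 4, whereas 15 of the 53 members had them in at least 4 of 5 withdrawn mice.

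The counts of the directions are not on equal terms, since a low group of 6 is harder to satisfy than a low group of 5, and 3 of 5 mice harder to reach than 3 of 6. With 5 mice in each group, leaving out naïve mice 1 to 6 in turn, 65, 131, 94, 89, 55 and 69 genes were near absent in naïve mice and 23, 12, 18, 13, 27 and 15 near absent in withdrawn mice. Leaving out withdrawn mice 1 to 5 in turn, with 6 naïve and 4 withdrawn mice, gave 21, 35, 35, 19 and 41 against 60, 43, 54, 116 and 60, so the order of the directions turned in each of these settings. With every library thinned to the total of the shallowest, 53 genes were near absent in naïve and 13 in withdrawn mice, but 22 of those 53 were members. Without the 3 withdrawn mice with conflicting labels, 19 of the 53 members had 10 counts in both remaining withdrawn mice. A total of 49 genes met the rule when 10 counts were asked of both. The other way round 411 genes met it, with 3 of 6 naïve mice asked and a low group of 2 mice, which is easier to satisfy. These 2 numbers are therefore not comparable. Of protein-coding genes alone, 32 and 13 met the rule.

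**Figure D5:**
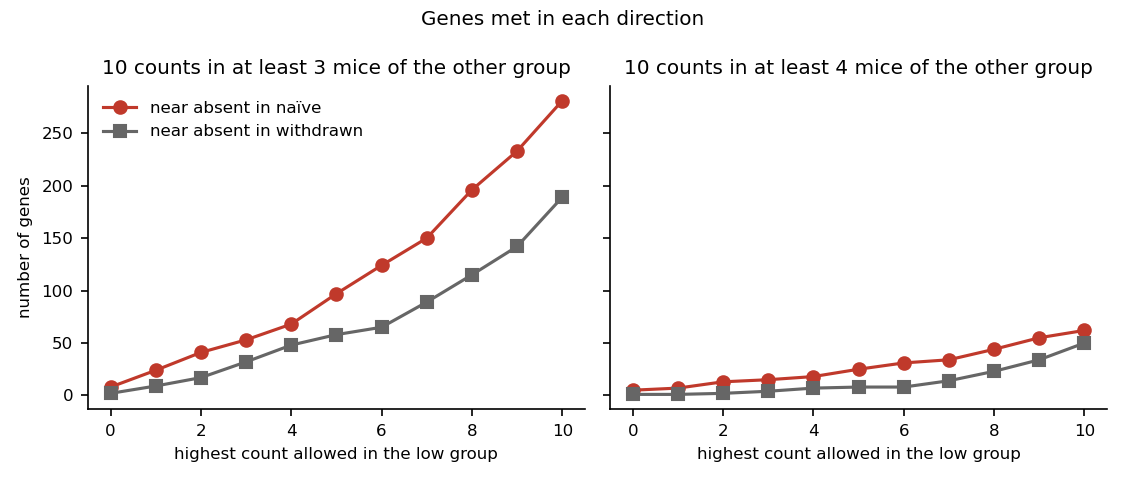
Number of genes met in each direction (red: near absent in naïve mice, grey: near absent in withdrawn mice) against the highest count allowed in the low group, with 10 counts needed in at least 3 (left) or 4 (right) mice of the other group. At a limit of 3 counts and 3 mice the counts are 53 and 32, and the red line lies above the grey at every limit drawn.

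The edge of the rule was crowded. Of the members, 12 had a naïve mouse at exactly 3 counts, with Smim5, Gm19688, Gm47392, Olfr459 and 7330423F06Rik the highest of them. Just outside, 17 genes had a naïve mouse at 4 counts and met the withdrawn part, and 215 had 10 counts in exactly 2 withdrawn mice. Six2, a homeobox gene with 4 counts in naïve mouse 6, had 104, 0, 81, 55 and 26 counts in withdrawn mice. Gbp8, a guanylate-binding protein with 4 counts in naïve mouse 1, had 169, 9, 127, 56 and 0, and Dnajc5b, with 4 in naïve mouse 2, had 124, 0, 91, 49 and 9. Klk6, Lad1, Gm11290, 1700030C10Rik and Slc5a9 were the highest of those with 2 withdrawn mice at 10 counts. Loxl1 and Brca1, among the genes the rule leaves out, also missed it by a naïve count of 4.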

How the data were processed

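Adapters were removed by the authors in cutadapt 1.18, alignment to GRCm38 with Ensembl 91 genes used STAR 2.5.2a, and HTSeq 0.11.0 made the deposited raw counts of each mouse. The strand setting is not given in the sources used here. Rows that tally reads on no gene (18.9% to 58.0% of tallied reads) were left out of library sizes. Symbols matched 53274 of 53465 identifiers in GENCODE M21, on the same assembly. No file was a near copy of another (chi-square per degree of freedom at least 29.3 over 25 pairs within groups).

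The members, gene lists and tests were chosen with earlier results of these data known. Named were members with 10 counts in every withdrawn mouse, the 15 highest by median CPM, up to 4 per symbol family, those near the limits, and the 10 highest of the other direction. The remaining genes named by layout, function or overlap were chosen after their values were seen. edgeR 4.0.16 in R 4.3.3 (TMM, filterByExpr with a minimum count of 10, quasi-likelihood test, Benjamini-Hochberg) was checked on simulated data, and DESeq2 1.42.0 was an alternative. The further alternatives were other limits of the rule, thinned or scaled counts, other scalings and filters, a replicate block and mice left out.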

Additional observations from a re-analysis of the deposited data

Results flagged for a closer look

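By Dixon's criterion, an extreme mouse was found in 14 of 95 sets of group values. The sets share the same mice and include the members, which these counts chose, so no number expected by chance is given. Withdrawn mouse 4 was high in summed CPM of microglia markers (19.6), endothelial cell markers (382.4), mural cell markers (194.6), lymphocyte markers (30.1) and erythroid cell markers (191.0), and in CPM of Slc45a3 (18.2) and Stx11 (8.45). Withdrawn mouse 2 was high in CPM of Zfp148-ps1 (5.64), Gm5544 (5.09), A430028G04Rik (6.08), Hsd17b14 (10.7) and Gm38144 (9.29). Withdrawn mouse 1 was high in summed CPM of ependymal and choroid plexus markers (22.3), and withdrawn mouse 3 in CPM of Agr2 (3.92). Mice 4 and 2 were also the shallowest libraries, with the largest shares of reads outside exons, and the part of these in the values was not tested.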

How the results depend on the processing

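The 53 members became 8 with a limit of 0 counts in naïve mice, 97 with 5, 13 when 20 counts were needed, and 15 and 1 when 4 and 5 withdrawn mice were needed. The 32 genes of the other direction became 2, 58, 7, 4 and 0. Scaling counts to the median library gave 60 (45 of them members) against 14, and thinning gave 53 against 13. Without the 3 mice with conflicting labels, with both remaining withdrawn mice at 10 counts, 49 genes were met, of which 19 are members. The other way round 411 genes were met, with a low group of 2 mice. With each mouse left out, the members ranged from 19 to 131 and the other direction from 12 to 116. Settings chosen after seeing the data gave 36 against 37 without naïve mouse 5 and withdrawn mouse 2, 13 without withdrawn mice 2 and 4, and 32 against 13 for protein-coding genes. With its 8 genes kept the rule gave 55.

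edgeR's single call became 137 with no low-count filter and 362 with DESeq2's Wald test. It became 0 without the mice with conflicting labels (1335 genes with an unadjusted p under 0.05 in edgeR) and 0 with the replicate number as a block (1022), and ranged from 0 to 193 with each mouse left out, the highest without withdrawn mouse 2. The causes were not tested. Equal numbers do not pair these mice (correlations of deviations from −0.20 to 0.18 over 5 pairs, with 2 of 10 mice closest to their own number). The mean withdrawn CPM of each member moved by less than 1 SD in all 106 other scalings.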
